A study of Mus musculus with 18 samples.

Results

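Long intergenic noncoding RNAs (lincRNAs) expressed in the mouse colon were followed through AOM/DSS-induced colitis-associated cancer (CAC) and through CAC with Claudin-2 overexpression. The set holds the rows of the deposited count table that the GENCODE M21 annotation types as lincRNA, that lie on an autosome and that had a mean level of at least 1 CPM (read counts scaled to the library total) over the 9 libraries. Of 47729 rows, 3543 were lincRNAs, 645 of these lay on X or Y, and 151 met the rule. Another 2747 autosomal lincRNA rows fell under the threshold, and 1592 of them had no count in any library. The members were thus chosen by their measured level, and levels are given as a description. At its edge, Gm20939, Gm13412 and Gm28151 had 1.05, 1.005 and 1.001 CPM, and 4632411P08Rik, Gm43597 and Gm26809 just outside had 0.981, 0.976 and 0.969 CPM.

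RNA was taken from the colons of 9 mice. Mice 1 to 3 (naive WT) were wild-type controls, WT CAC mice (4 to 6) were wild type and had received azoxymethane (AOM, 10 mg/kg, once), a carcinogen, and 3 cycles of 2.5% dextran sulfate sodium (DSS), which injures the colonic epithelium. Cldn2TG CAC mice (7 to 9) received the same treatment and carried a Claudin-2 transgene under the villin promoter, which is active in the intestinal epithelium. Per the study's methods the mice were C57BL/6 littermates matched for age and sex. The ages of the mice were not given in the sources used here, and the protocol text names AOM and DSS under each sample, so that naive rests on the treatment label alone. There was no untreated Cldn2TG group: in Cldn2TG CAC against naive WT, genotype and treatment cannot be told apart. Between 14142711 and 22262546 reads per library were counted on genes, which makes 3 counts, the limit that a count of 0 allows, 0.135 to 0.212 CPM (counting error only). The 9 marker genes of colon epithelium, among them Epcam, Vil1 and Cdx2, summed to between 18095 and 23959 CPM in the 9 libraries. In naive WT mouse 1 Xist was at 219.9 CPM and in the other 8 mice at most at 0.212 CPM, which goes against matching by sex across the groups. The lincRNAs studied here are all autosomal, and the counts of calls without naive WT mouse 1 are given with both comparisons that use it. In bulk RNA, fewer cells of a type and less RNA per cell cannot be told apart.

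LincRNAs are transcribed by RNA polymerase II from their own promoters, spliced and polyadenylated like messenger RNAs, but carry no long conserved reading frame. Some act in the nucleus, as scaffolds of nuclear bodies (Neat1 in paraspeckles) or in the neighbourhood of the genes beside which they are transcribed (Hottip at the Hoxa cluster). Others are hosts from which microRNAs or small nucleolar RNAs are cut, and many are made mainly in 1 cell type, so that their level in whole tissue also follows the cells present. Most members have no established role: 65 of the 151 bear a Gm number and 60 a Rik clone name.

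The RefSeq table places 17 microRNA hairpins within 9 members, on the same strand, and in Meg3 also the mature miR-1906, which has no hairpin entry there. The mature RNAs of 3 of these members are shown. Mir17hg is a known microRNA host, and for 6720427I07Rik and 4833445I07Rik only the position of the hairpins within the row is known here. The seed is the bases 2 to 8, which pair with target messenger RNAs, and some of these RNAs have the same seed. The sequences are those of RefSeq (GRCm38.p6), written 5′ to 3′ with the seed in capitals. Mir17hg, on chromosome 14 from 115042879 to 115046727 (plus strand), is the host of the miR-17-92 cluster, which promotes proliferation and is often raised in tumours.
miR-17-5p: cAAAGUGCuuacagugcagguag
miR-20a-5p: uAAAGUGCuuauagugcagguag
miR-18a-5p: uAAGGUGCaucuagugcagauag
miR-19a-3p: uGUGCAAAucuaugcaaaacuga
miR-19b-3p: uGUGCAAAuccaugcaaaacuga
miR-92a-3p: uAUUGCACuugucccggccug
MiR-17-5p and miR-20a-5p have the same seed, and so do miR-19a-3p and miR-19b-3p. The member 6720427I07Rik, on chromosome 13 from 48532905 to 48546500 (minus strand), held let-7 hairpins, the family that restrains growth genes. All 3 of its 5p arms have the seed that 11 mature RNAs of the table carry.
let-7a-5p: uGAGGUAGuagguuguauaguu
let-7d-5p: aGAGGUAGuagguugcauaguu
let-7f-5p: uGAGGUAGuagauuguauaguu
The member 4833445I07Rik, on chromosome 9 from 108567533 to 108569174 (plus strand), held miR-191 and miR-425, whose seeds differ.
miR-191-5p: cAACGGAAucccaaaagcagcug
miR-425-5p: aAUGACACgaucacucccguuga

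Promoter windows, 250 bases before to 50 bases after a RefSeq start (GRCm38.p6), could be matched by symbol for 86 members, and 62 of these windows lay within 100 bases of the start in GENCODE M21. Of the 19 members that changed in at least 1 comparison, 6 had such a window. Of these, 4 are printed because they hold a searched motif, with the letters of the motif in capitals. Hottip (chr6:52262525-52262824, plus strand) starts beside Hoxa13, C030037D09Rik (chr11:88718393-88718692, plus strand) starts 132 bases from the oppositely transcribed Msi2, and AU020206 (chr7:75782071-75782370, minus strand) and 1810063I02Rik (chr11:59921249-59921548, plus strand) are the remaining ones.
Hottip: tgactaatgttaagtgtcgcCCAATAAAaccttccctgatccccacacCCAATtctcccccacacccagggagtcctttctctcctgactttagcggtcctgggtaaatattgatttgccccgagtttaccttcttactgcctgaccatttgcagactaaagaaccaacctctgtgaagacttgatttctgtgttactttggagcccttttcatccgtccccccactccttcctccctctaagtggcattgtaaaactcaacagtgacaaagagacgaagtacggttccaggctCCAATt
C030037D09Rik: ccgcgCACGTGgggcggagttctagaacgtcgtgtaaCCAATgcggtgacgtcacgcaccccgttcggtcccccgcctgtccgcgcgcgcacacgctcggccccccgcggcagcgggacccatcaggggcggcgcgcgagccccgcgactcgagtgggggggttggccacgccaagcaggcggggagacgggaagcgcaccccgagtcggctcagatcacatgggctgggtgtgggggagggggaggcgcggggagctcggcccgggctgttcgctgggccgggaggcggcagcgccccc
AU020206: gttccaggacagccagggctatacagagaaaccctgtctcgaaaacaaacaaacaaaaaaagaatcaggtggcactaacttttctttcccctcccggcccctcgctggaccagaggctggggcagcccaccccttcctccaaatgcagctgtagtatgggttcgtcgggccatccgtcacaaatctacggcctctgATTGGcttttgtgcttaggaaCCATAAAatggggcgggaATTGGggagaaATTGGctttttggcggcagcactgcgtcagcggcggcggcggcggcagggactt
1810063I02Rik: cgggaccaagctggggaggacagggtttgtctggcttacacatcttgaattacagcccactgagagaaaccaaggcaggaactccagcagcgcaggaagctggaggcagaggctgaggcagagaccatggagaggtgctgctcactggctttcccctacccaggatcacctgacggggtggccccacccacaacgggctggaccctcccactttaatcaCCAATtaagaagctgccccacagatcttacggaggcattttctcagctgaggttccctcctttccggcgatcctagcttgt
In each window 9 motifs were searched on both strands, namely TATAAA of the TATA box, CCAAT of the factor NF-Y, TGANTCA of AP-1, TTCNNNGAA of STAT factors, the NF-kB motif, CACGTG of the E-box, AGATAAG of zinc finger factors of gut epithelium, TTTATNG of CDX factors and CAAAGTCC of HNF4. Hottip held CCAAT 3 times, and its first copy overlaps a TTTATNG match on the other strand. AU020206 held CCAAT on the bottom strand 3 times and 1 TTTATNG, C030037D09Rik held CCAAT and CACGTG, and 1810063I02Rik held 1 CCAAT. Over the 62 windows, CCAAT was present in 38.7%, against 37.4% of all 32817 windows. TATAAA was present in 6.45% against 13.6%, CACGTG in 11.3% against 7.15%, TTTATNG in 12.9% against 10.9%, TGANTCA in 8.06% against 7.81%, TTCNNNGAA in 8.06% against 8.29%, NF-kB in 6.45% against 5.56% and AGATAAG in 1.61% against 3.05%. CAAAGTCC was in none of the 62 windows and in 1.42% of all. The window of C030037D09Rik was the most GC-rich of the 6, with 75.7% GC and 42 CpG dinucleotides, against medians of 54.3% and 13 for the 62 members and 52.7% and 7 for all windows.

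The 151 members lay on all 19 autosomes, 23 of them on chromosome 5. The median member had 2.75 CPM, 2249 exon bases in 3 exon blocks and a GC content of 48.0%. Only 4 members reached 100 CPM (Gm26917, Neat1, AW112010 and 1700020I14Rik), 22 had 10 to 100 CPM and 125 had less than 10 CPM, 50 of these under 2 CPM. A mean of at least 1 CPM was reached in every group by 127 members, and 24 passed only through 1 or 2 groups. The strand setting of the counting was not given in the sources used here, and 51 members share exon bases with another gene, 40 of them with a gene on the opposite strand, so reads in the shared bases cannot be assigned with certainty. The shared part was 0.290% to 98.4% of their exon bases, with a median of 15.2%. Of all 50-base windows of their transcripts, at least 10% also occur in other transcripts for 35 members.

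On the TPM scale, which divides the counts by transcript length, the set was led by 3 members. Gm10076 had a mean level of 609 TPM, AW112010 of 536 TPM and Gm26917 of 320.3 TPM. The next, Epb41l4aos, had 91.8 TPM, followed by Snhg18 with 74.5, Tmem250-ps with 73.9, Neat1 with 49.8, 1810058I24Rik with 39.4, 1700020I14Rik with 38.1 and Gm53 with 35.5 TPM. Snhg18 and Tmem250-ps lay closer together than the SD of Snhg18 within a group, and so did 1810058I24Rik and 1700020I14Rik. Gm10076 is a single-exon row of which 69.9% of the 50-base windows also occur in other transcripts, Rpl41 (a ribosomal protein gene) first among them, so its level is uncertain. AW112010 was at 268 ± 61.0 TPM in naive WT, 923 ± 312 TPM in WT CAC and 417 ± 41.5 TPM in Cldn2TG CAC mice (SD, n = 3 mice), and Gm10076 was at 537 ± 47.2, 665 ± 91.9 and 626 ± 23.1 TPM.

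**Figure D1:**
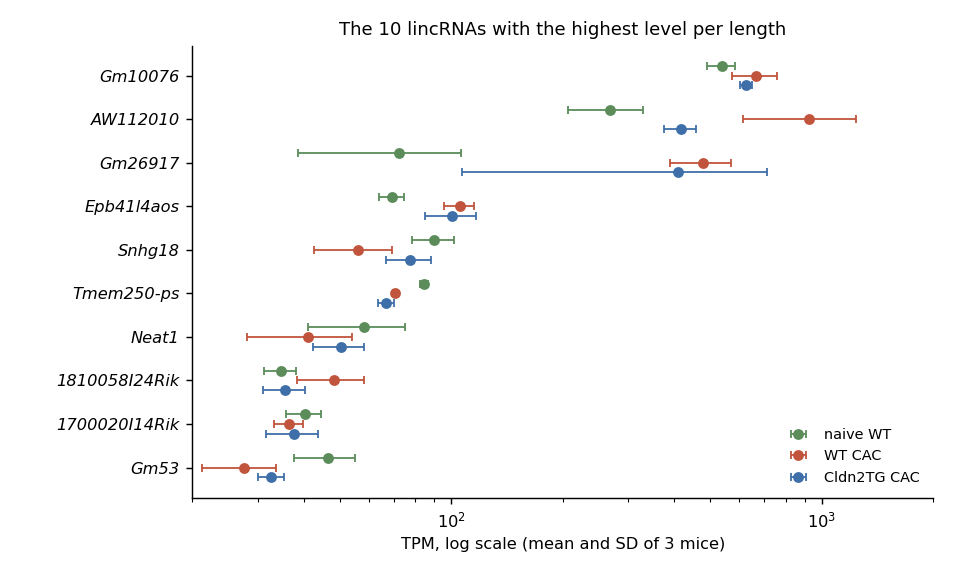
Level per length (TPM, logarithmic axis, mean and SD of 3 mice) of the 10 members with the highest mean over the 9 libraries, by group. Gm10076, AW112010 and Gm26917 stand above the rest; AW112010 was highest in WT CAC mice (923 TPM) and Gm26917 spread widely in Cldn2TG CAC mice (SD 303 TPM).

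Gm26917, on chromosome 17 from 39843013 to 39846341 (plus strand), is a GC-rich row on a list of ribosomal RNA or repeat rows, and it took a large part of the reads on the set in some mice. In naive WT mice it was at 140.4, 53.5 and 86.3 CPM, in WT CAC mice at 759, 493 and 701 CPM and in Cldn2TG CAC mice at 98.2, 966 and 810.1 CPM. All WT CAC mice lay above all naive mice, with a log2 fold change of 2.83 (SE 0.37, adjusted p = 0.00834), and it stayed called without any 1 mouse. Cldn2TG CAC mouse 7 lay among the naive mice and mice 8 and 9 above every WT CAC mouse. Against naive WT the log2 fold change was 2.74 (SE 1.01, adjusted p = 0.193), which DESeq2 called with all mice (adjusted p = 0.0280), and without mouse 7 it was 3.24 (adjusted p = 0.0360). Members took 0.163% to 0.189% of the counts in naive WT, 0.206% to 0.270% in WT CAC and 0.179% to 0.282% in Cldn2TG CAC mice. Without the rows of that list the group means were 0.167%, 0.177% and 0.173%, with SDs of 0.0176, 0.0187 and 0.0149 percentage points (n = 3 mice each). The rows Gm42418 and AY036118 of the same list had 0 counts in all 9 libraries.

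To determine which lincRNAs changed in tumour-bearing WT colon, WT CAC mice were compared with naive WT mice. A gene is called when its adjusted p in edgeR's quasi-likelihood test was under 0.05 over all genes tested. Of 151 members, all tested, 10 rose and 4 fell, or 9.27%, where 15.0% of all 15437 genes tested were called (8.04% higher, 6.92% lower). In 32 members every WT CAC mouse lay above every naive mouse and in 24 below, against 17.7% and 20.3% of all genes tested. Among the 127 members with at least 1 CPM in every group, 9 rose and 3 fell. The other two, Gm13203 and C030037D09Rik, were among the 24 that met the level rule only through groups in which they are higher. At an unadjusted p under 0.05 there were 45 members, 29.8% against 32.6% of all genes tested. Of the 14 calls 11 were lost without at least 1 mouse, and those of Gm26917, Gm30414 and Gm38910 held in each of these fits. Without naive WT mouse 1, 2 or 3 the test called 5, 3 and 5 members (3.96%, 0.847% and 2.55% of all genes tested). Without WT CAC mouse 5 or 6 it called 9 and 8 (7.90% and 6.72% of all genes), and without WT CAC mouse 4 it called 30, 13 of the 14 among them (25.7% of all genes). WT CAC mouse 4 stood apart from mice 5 and 6 (chi-square per degree of freedom 66.3 and 65.3, against 31.9 between those 2).

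Per length (TPM), the most abundant of the rising members was AW112010, an RNA of immune cells that interferon and bacterial products induce and that is also translated. It lies on chromosome 19 from 11047612 to 11055808 (minus strand), 25294 bases by start from the coding gene Ms4a8a. Its level was 67.1, 75 and 97.5 CPM in naive WT, 183, 338 and 339 CPM in WT CAC and 152, 135 and 145 CPM in Cldn2TG CAC mice. The groups did not overlap: WT CAC was highest, Cldn2TG CAC in between and naive WT lowest. The rise in WT CAC was 1.87 on the log2 scale (SE 0.26, adjusted p = 0.00842), and the call was lost without naive WT mouse 2 (adjusted p = 0.0552). Gm30414, on chromosome 1 from 7497968 to 7518149 (plus strand) and far from any coding start, followed the same order at a much lower count. It was at 1.44, 2.01 and 1.78 CPM in naive WT, at 6.81, 8.49 and 7.30 CPM in WT CAC and at 3.38, 3.34 and 3.10 CPM in Cldn2TG CAC mice. Its log2 fold change in WT CAC was 2.13 (SE 0.24, adjusted p = 0.00492), and leaving out any 1 mouse kept the call. The exact permutation test gave p = 0.1 for both, the smallest that 3 mice against 3 allow.

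Markers of white blood cells moved with these members in WT CAC. The summed level of 6 leukocyte genes (Ptprc, Cd52, Coro1a, Laptm5, Lcp1 and Tyrobp) was 38.3 to 80.5 CPM in naive WT, 147 to 209 CPM in WT CAC and 34.6 to 59.7 CPM in Cldn2TG CAC mice, and 6 of 6 rose in WT CAC. In Cldn2TG CAC mice that sum lay within or under the naive range, while AW112010 and Gm30414 lay above every naive mouse. The 6 neutrophil genes summed to at most 0.825 CPM in naive WT, to 2.03, 51.4 and 28.1 CPM in WT CAC and to at most 0.507 CPM in Cldn2TG CAC mice, with Ngp at 0 in every library. Of 6 macrophage genes 5 rose, of 5 T cell genes 4 and of 6 B and plasma cell genes 2. Of 2 red cell genes tested 0 were called (sums of 1.41 to 8.16 CPM in naive WT and 2.81 to 5.13 CPM in WT CAC mice). Genes of squamous epithelium summed to 1.24 to 2.51 CPM in naive WT, 19.5 to 57.3 CPM in WT CAC and 3.10 to 4.13 CPM in Cldn2TG CAC mice. Their part in the rise of the lincRNAs was not tested.

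Another 5 members rose from low or moderate levels. 9130204K15Rik went from 3.63, 3.11 and 3.13 CPM in naive WT to 9.25, 12.6 and 5.96 CPM in WT CAC (log2 fold change 1.52, SE 0.29, adjusted p = 0.0185), a call that was lost without naive WT mouse 1, 2 or 3 (adjusted p = 0.0572, 0.0811 and 0.0734). Gm15675 went from 1.89, 0.854 and 1.09 CPM to 13.7, 4.69 and 3.15 CPM (log2 fold change 2.52, SE 0.60, adjusted p = 0.0333). It was highest in WT CAC mouse 4 and shares 29.5% of its exon bases with Gm15674 on the opposite strand. Without mouse 4 the log2 fold change was 1.64 (adjusted p = 0.0185), and it was called without mouse 6 too but not without any other single mouse (adjusted p = 0.0528 to 0.127). Gm13203 went from 0.348, 1.004 and 1.26 CPM to 2.39, 3.32 and 6.09 CPM (log2 fold change 2.18, SE 0.52, adjusted p = 0.0326) and kept its call only without WT CAC mouse 4 (adjusted p = 0.0112, otherwise 0.0630 to 0.107). Gm26532, a single-exon transcript that adjoins Mir24-2 on chromosome 8 from 84208920 to 84209609, went from 3.04, 3.51 and 2.69 CPM to 13.3, 5.75 and 5.16 CPM (log2 fold change 1.41, SE 0.39, adjusted p = 0.0462). WT CAC mouse 4 again stood highest, and without it the log2 fold change was 0.85 (adjusted p = 0.0331). Without mouse 6 it was called as well (adjusted p = 0.0459) and without each of the others it was not (adjusted p = 0.0576 to 0.154). Epb41l4aos, whose nearest coding start is that of Epb41l4a at 212074 bases, rose by less and with little spread: 11.2, 11.2 and 12.2 CPM in naive WT and 19.6, 16.1 and 19.8 CPM in WT CAC (log2 fold change 0.70, SE 0.15, adjusted p = 0.0223). Its call was lost without any naive WT mouse and without WT CAC mouse 6 (adjusted p = 0.0579 to 0.0954).

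The other 2 that rose are named after their values were seen. AU020206 was at 16.5, 13.6 and 14.2 CPM in naive WT and at 18.5, 24.1 and 27.1 CPM in WT CAC mice (log2 fold change 0.67, SE 0.17, adjusted p = 0.0381). Gm44751, 33393 bases from the start of the cathepsin gene Ctsc, was at 1.49, 1.31 and 2.08 CPM and at 3.00, 3.63 and 3.35 CPM (log2 fold change 1.05, SE 0.28, adjusted p = 0.0429). Both calls held only without WT CAC mouse 4 (adjusted p = 0.00750 and 0.0299) and not without any other mouse (adjusted p from 0.0761 to 0.155).

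In WT CAC colon 4 members fell. Hottip, which is transcribed from the 5′ end of the Hoxa cluster and has been linked to the activity of the distal Hoxa genes, was at 37.4, 33.2 and 31.6 CPM in naive WT, at 17.4, 12.4 and 13.4 CPM in WT CAC and at 25.5, 32.0 and 26.4 CPM in Cldn2TG CAC mice. It fell by 1.22 on the log2 scale (SE 0.16, adjusted p = 0.00796). The call was lost without naive WT mouse 2 (log2 fold change -1.24, adjusted p = 0.0507), where 0.847% of all genes tested were called. Of its exon bases 25.3% are shared with 3 other annotated rows of its strand. Its neighbour Hoxa13, which patterns the hindgut, had a log2 fold change of -0.17 (SE 0.11, adjusted p = 0.324). Gm38910 on chromosome 6 (134605234 to 134607681, minus strand) was at 29.4, 35.7 and 28.0 CPM, 14.6, 14.5 and 15.5 CPM, and 19.4, 19.97 and 22.5 CPM in the 3 groups in the same order. The WT CAC values lay close together and under all others. It fell by 1.04 (SE 0.14, adjusted p = 0.00781), and leaving out any 1 mouse kept the call.

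The other two fell with less certainty. 4732465J04Rik went from 12.6, 15.2 and 12.1 CPM to 8.84, 5.26 and 4.75 CPM (fell by 1.05 on the log2 scale, SE 0.26, adjusted p = 0.0348) and kept its call only without WT CAC mouse 4 (adjusted p = 0.00242, otherwise 0.0861 to 0.133). C030037D09Rik, beside the RNA-binding protein gene Msi2, went from 1.24, 1.71 and 2.04 CPM to 0.610, 0.619 and 0.804 CPM (fell by 1.28, SE 0.33, adjusted p = 0.0403), and none of the 6 fits without 1 mouse called it (adjusted p = 0.0509 to 0.148).

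**Figure D2:**
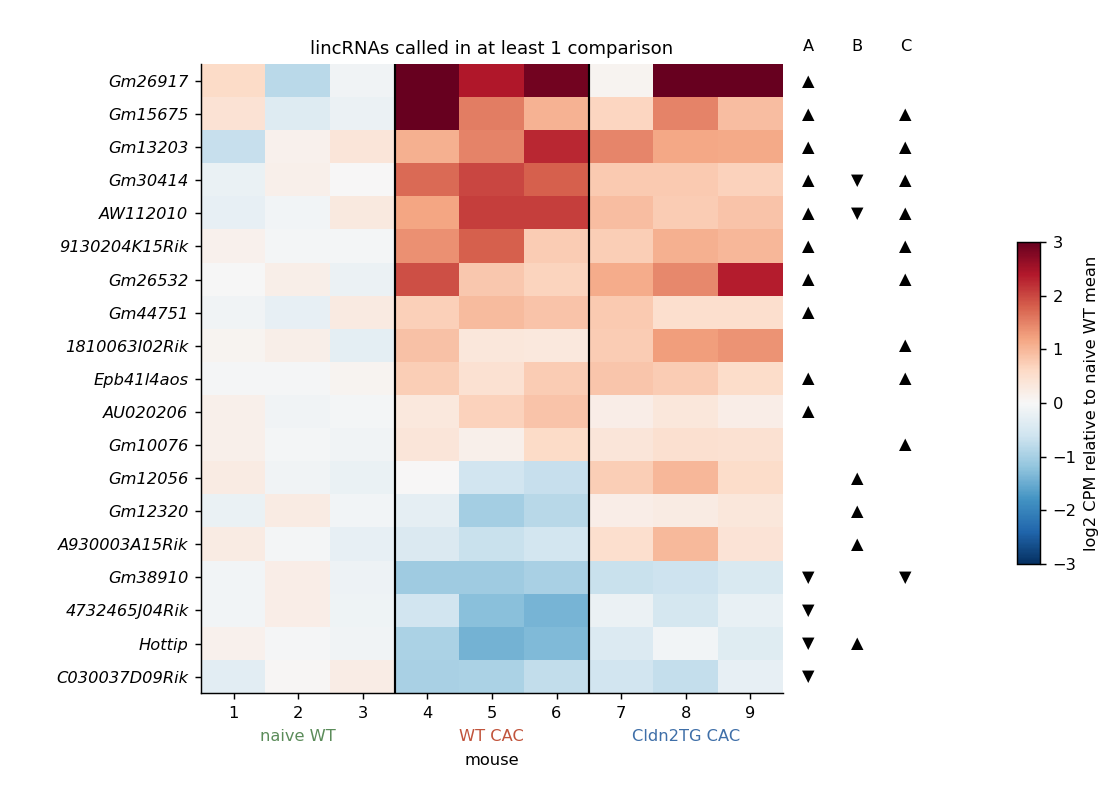
Level of each of the 19 members called in at least 1 comparison in every mouse, as log2 CPM relative to the mean of naive WT (0.5 CPM added to both; the scale ends at 3 in either direction). Triangles mark a call, up or down, in WT CAC against naive WT (A), Cldn2TG CAC against WT CAC (B) and Cldn2TG CAC against naive WT (C); AW112010 and Gm30414 are highest in WT CAC mice, and Gm26917 is low in Cldn2TG CAC mouse 7.

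To find which lincRNAs differed with Claudin-2 overexpression under the same treatment, Cldn2TG CAC mice were compared with WT CAC mice. Of 151 members 4 were higher and 2 lower, or 3.97%, where 9.54% of all 14888 genes tested were called (2.19% higher and 7.35% lower). In 23 members every Cldn2TG CAC mouse lay above every WT CAC mouse and in 10 below, against 14.2% and 14.3% of all genes tested. Of these 6 calls, 2 higher ones (A930003A15Rik and Gm12056) came from the 24 members that met the level rule only through 1 or 2 groups, and 2 higher and 2 lower from the other 127. At an unadjusted p under 0.05 there were 23 members, 15.2% against 23.5% of all genes tested. Without WT CAC mouse 4 the count was 22, all 6 among them, where 19.2% of all genes tested were called. Without WT CAC mouse 5 and without Cldn2TG CAC mouse 7 or 9, edgeR called 0 members (16, 14 and 20 at an unadjusted p under 0.05) and 3.7%, 2.92% and 0.685% of all genes tested. Without WT CAC mouse 6 or Cldn2TG CAC mouse 8 it called 2 and 1 (5.19% and 0.382% of all genes), the last a member not called with all mice. DESeq2 on all 6 mice called 10 (13.9% of all genes tested).

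Both lower members had risen in WT CAC. The 2 comparisons use the same WT CAC mice, so the rise and the lower level are not independent observations. The same holds for Hottip, which had fallen in WT CAC. AW112010 was 1.01 lower on the log2 scale (log2 fold change -1.01, SE 0.22, adjusted p = 0.0274), so that the level of 144 ± 8.69 CPM compared with 287 ± 89.8 CPM in WT CAC mice (SD, n = 3 mice). Gm30414 had a log2 fold change of -1.22 (SE 0.22, adjusted p = 0.0136), with 3.27 ± 0.149 CPM against 7.53 ± 0.866 CPM (SD, n = 3 mice). No mouse of the 2 groups overlapped for either. Without WT CAC mouse 4 both were called (adjusted p = 0.000205 and 0.00409). Without Cldn2TG CAC mouse 7, 8 or 9 neither was (adjusted p = 0.0850, 0.123 and 0.116 for AW112010 and 0.0563, 0.0775 and 0.0727 for Gm30414), without WT CAC mouse 5 neither (0.0859 and 0.0532), and without WT CAC mouse 6 only Gm30414 was (0.0334, against 0.0740 for AW112010). All 6 leukocyte genes, 5 of 6 macrophage genes and 4 of 5 T cell genes were lower in Cldn2TG CAC mice as well, and their part in the difference was not tested.

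Higher levels were called for 4 members in Cldn2TG CAC mice. Hottip rose by 0.94 on the log2 scale (SE 0.18, adjusted p = 0.0159) to 27.9 ± 3.52 CPM, from 14.4 ± 2.64 CPM in WT CAC mice (SD, n = 3 mice). The call held without WT CAC mouse 4 or 6 (adjusted p = 0.00162 and 0.0480) and was lost without WT CAC mouse 5 or Cldn2TG CAC mouse 7, 8 or 9 (0.0578, 0.0527, 0.0852 and 0.0688). A930003A15Rik, on chromosome 16 from 19876567 to 19884274 (minus strand), was at 1.54, 1.15 and 0.955 CPM in naive WT, 0.762, 0.575 and 0.670 CPM in WT CAC and 1.93, 2.89 and 1.77 CPM in Cldn2TG CAC mice. It shares 23.3% of its exon bases with 2 other rows. Its values in Cldn2TG CAC lay above those of both other groups, and the log2 fold change was 1.70 (SE 0.35, adjusted p = 0.0212). Gm12056 reached 1 CPM on average in Cldn2TG CAC mice alone, so it entered the set through the group in which it was higher, with 1.24, 0.854 and 0.782 CPM in naive WT, 0.965, 0.486 and 0.402 CPM in WT CAC and 1.93, 2.43 and 1.63 CPM in Cldn2TG CAC mice (log2 fold change 1.65, SE 0.41, adjusted p = 0.0397). Gm12320 was at 5.57, 7.78 and 6.04 CPM, 5.23, 2.96 and 3.41 CPM, and 7.51, 7.80 and 8.35 CPM (log2 fold change 1.0, SE 0.27, adjusted p = 0.0496). The calls of these 3 held only without WT CAC mouse 4 (adjusted p = 0.0124, 0.00600 and 0.00433) and ranged from 0.0638 to 0.164 without each of the other mice, and that of Gm12320 was lost with library size or upper-quartile scaling.

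**Figure D3:**
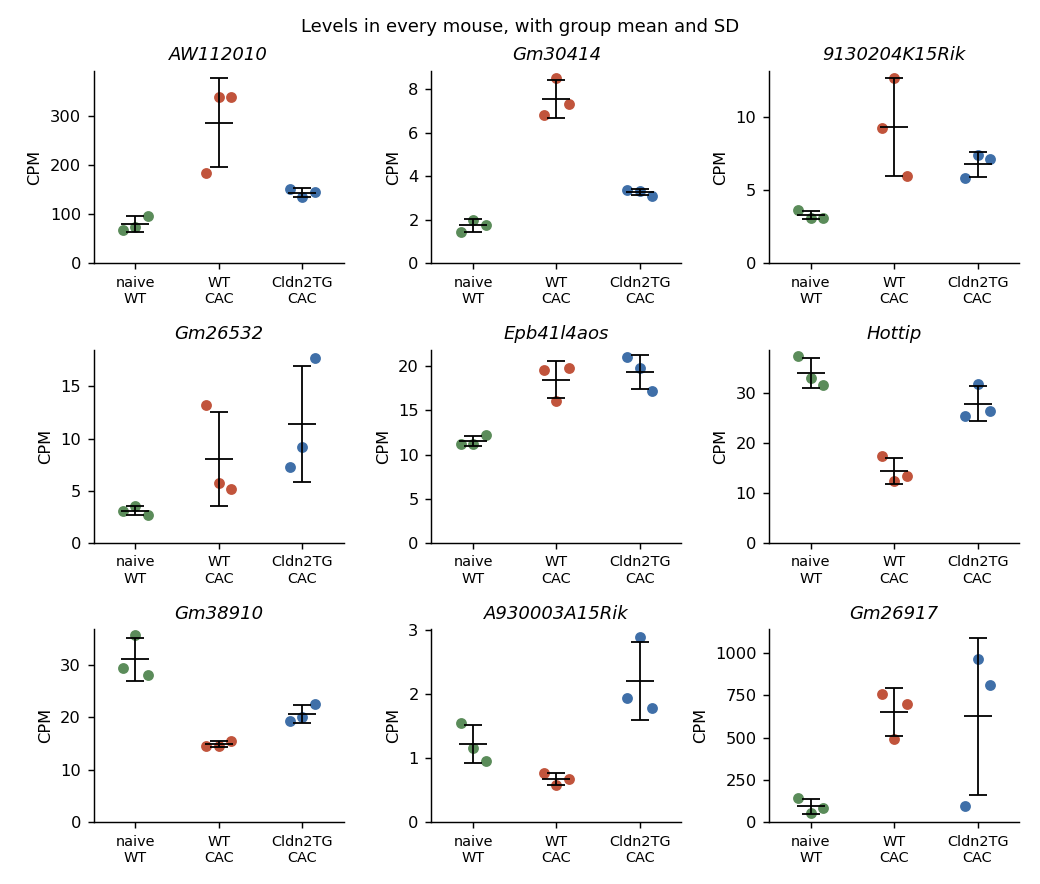
CPM of 9 members in every mouse (points), with the group mean and SD of 3 mice (black); each vertical axis starts at 0. AW112010 and Gm30414 are highest in WT CAC, Hottip and Gm38910 lowest there, Epb41l4aos and Gm26532 are raised in both CAC groups, and A930003A15Rik is highest in Cldn2TG CAC mice.

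The last comparison set Cldn2TG CAC against naive WT mice, with the spread between mice lower than in the others (biological coefficient of variation 0.149, against 0.218 and 0.217). It shares its mice with the other comparisons, so its values are given beside theirs. Of 151 members 9 were higher and 1 lower, or 6.62%, where 10.0% of all 15013 genes tested were called (3.92% higher, 6.07% lower). In 39 members every Cldn2TG CAC mouse lay above every naive mouse and in 10 below, against 14.9% and 16.3% of all genes tested. Of the 10 calls 9 came from the 127 members with at least 1 CPM in every group and 1 (Gm13203) from the other 24. At an unadjusted p under 0.05 there were 35 members, 23.2% against 26.0% of all genes tested. With all 9 libraries in 1 fit 4 of the 10 calls were kept (Gm26532, Epb41l4aos, 1810063I02Rik and Gm38910) and 6 were lost (2.83% of all genes tested were called in that fit). Leaving out 1 mouse gave 4 without Cldn2TG CAC mouse 8 (4.0% of all genes tested), 5 without naive WT mouse 3 (3.44%), 10 without naive WT mouse 1 (6.25%), 9 of them called with all mice, and 7 to 13 otherwise (5.26% to 8.95%).

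Of the immune list, AW112010 was 0.86 higher on the log2 scale than in naive WT (SE 0.13, adjusted p = 0.00503) and Gm26532 was 1.88 higher (SE 0.32, adjusted p = 0.00901). Both calls held without any 1 mouse. In Cldn2TG CAC mice Gm26532 was at 7.23, 9.17 and 17.7 CPM, all above the highest naive mouse at 3.51 CPM. Its place on the immune list rests on general knowledge alone. It was highest in WT CAC mouse 4 and Cldn2TG CAC mouse 9, which had the lowest leukocyte sums of their groups (147 and 34.6 CPM). No leukocyte gene passed the test in this comparison (0 of 6, edgeR's quasi-likelihood test, median log2 fold change -0.20), nor did any macrophage gene (0 of 6, median -0.68). Of the T cell genes 0 of 4 tested passed (median 0.50) and of the B and plasma cell genes 0 of 6 (median -0.18). The part of these cells in the levels of AW112010 and Gm26532 was not tested.

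Epb41l4aos was at 21.1, 19.8 and 17.2 CPM in Cldn2TG CAC mice and 0.75 higher than in naive WT (SE 0.13, adjusted p = 0.00874), a call that held without any 1 mouse. The difference between the 2 CAC groups was 0.05 on the log2 scale (SE 0.16, adjusted p = 0.918). 9130204K15Rik (5.79, 7.4 and 7.09 CPM) was 1.04 higher (SE 0.20, adjusted p = 0.0114), and the call was lost without naive WT mouse 3 or Cldn2TG CAC mouse 8 (adjusted p = 0.0509 and 0.0517). Gm30414 was 0.91 higher (SE 0.24, adjusted p = 0.0384), but not called without any 1 of the 6 mice (adjusted p = 0.0561 to 0.121). Gm15675 (2.27, 4.51 and 2.88 CPM) was 1.35 higher (SE 0.36, adjusted p = 0.0398), and its call was lost without naive WT mouse 2 or 3 or Cldn2TG CAC mouse 8 or 9 (adjusted p = 0.108, 0.143, 0.170 and 0.0752). Gm13203 (3.31, 2.58 and 2.51 CPM) was 1.67 higher (SE 0.39, adjusted p = 0.0233), a call lost without Cldn2TG CAC mouse 7, 8 or 9 (adjusted p = 0.0586, 0.0689 and 0.0542).

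Of the 3 comparisons, 2 members were called in this one alone. 1810063I02Rik, a short spliced transcript on chromosome 11 from 59921499 to 59921889, was at 1.54, 1.71 and 1.09 CPM in naive WT, 3.10, 1.95 and 1.94 CPM in WT CAC and 2.82, 4.10 and 4.43 CPM in Cldn2TG CAC mice (log2 fold change to naive WT 1.40, SE 0.28, adjusted p = 0.0136). Its call was lost without naive WT mouse 3 or Cldn2TG CAC mouse 8 (adjusted p = 0.0614 and 0.0583). Gm10076, whose reads may stem from Rpl41-like sequence, was 0.44 higher (SE 0.10, adjusted p = 0.0238), at 103, 111 and 110.3 CPM against 89.1, 77.3 and 73.9 CPM, and its call was lost without naive WT mouse 2 or 3 or Cldn2TG CAC mouse 8 or 9 (adjusted p = 0.0752, 0.112, 0.0876 and 0.0631) and with library size scaling. In WT CAC its log2 fold change to naive WT was 0.40 (SE 0.14, adjusted p = 0.0926), and between the CAC groups it was 0.03 (SE 0.14). Gm38910 was the only one lower: it fell by 0.59 (SE 0.13, adjusted p = 0.0191), with a call lost without naive WT mouse 2 or Cldn2TG CAC mouse 8 (adjusted p = 0.0667 and 0.0731).

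As a set, the lincRNAs sat above the middle of all genes in Cldn2TG CAC mice. The median log2 fold change of the 151 members was 0.03 in WT CAC against naive WT, 0.15 in Cldn2TG CAC against WT CAC and 0.26 in Cldn2TG CAC against naive WT, where that of all genes tested was 0.02, 0.01 and 0.00. Members above 0 numbered 79, 97 and 111 of 151. For the 127 members with at least 1 CPM in every group the medians were 0.03, 0.12 and 0.25. For the 24 that met the level rule only through 1 or 2 groups they were -0.57, 0.50 and 0.38. With library size in place of TMM scaling the median of all genes in the last 2 comparisons shifted to -0.09 and -0.11 and that of the members to 0.05 and 0.15, 0.14 and 0.26 above it, as under TMM. In WT CAC against naive WT the median of the members was -0.10 without WT CAC mouse 4 and 0.11 without mouse 5, with 66 and 88 members above 0. Without WT CAC mouse 5 the median of the members in Cldn2TG CAC against WT CAC was 0.01 and without WT CAC mouse 4 it was 0.35, and in Cldn2TG CAC against naive WT it was 0.17 without Cldn2TG CAC mouse 8 and 0.25 to 0.29 otherwise. Coding genes of the same range of counts (1 to 10 CPM) had medians of 0.12, -0.26 and -0.20, and 19.98%, 19.4% and 14.3% of them were called, against 5.60%, 3.20% and 4.80% of the 125 members in that range. Among other expressed autosomal rows not typed as protein coding, medians in Cldn2TG CAC against naive WT were 0.19 for 137 antisense RNAs and 0.17 for 62 rows awaiting experimental evidence (TEC). They were 0.08 for 116 processed transcripts, 0.19 for 310 processed pseudogenes and 0.20 for 30 long noncoding RNAs at bidirectional promoters. In Cldn2TG CAC against WT CAC they were 0.20 for 138 antisense RNAs and 0.20 for 61 TEC rows, both above the 0.15 of the lincRNAs. For processed transcripts the median there was 0.06, for processed pseudogenes 0.02 and for the RNAs at bidirectional promoters 0.03. In single mice the median of the members relative to the naive mean was 0.14, 0.29 and 0.09 in Cldn2TG CAC mice 7, 8 and 9, and 0.16, -0.16 and -0.07 in WT CAC mice 4, 5 and 6. For the coding genes of 1 to 10 CPM it was -0.19, -0.15 and -0.24 in mice 7, 8 and 9. In Cldn2TG CAC against naive WT, 7 of 7 markers of enteric neurons and glia and 4 of 5 endothelial markers were lower and 2 of 9 epithelial markers higher, and the part of cell makeup in the shift was not tested.

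**Figure D4:**
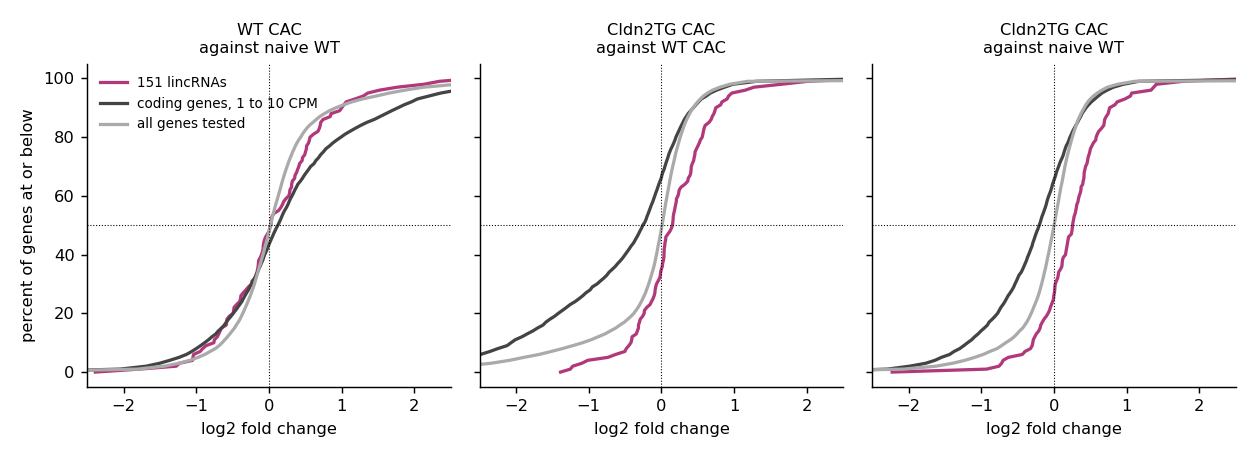
Share of genes (vertical axis, percent) at or below a log2 fold change (horizontal axis) for the 151 members, coding genes of 1 to 10 CPM and all genes tested, in the 3 comparisons. Around its middle the curve of the members lies to the right of both others in the 2 comparisons of Cldn2TG CAC mice, crossing 50% at 0.15 and 0.26.

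Of 34 small RNA hosts listed 5 were members, Snhg6, Snhg12, Snhg18, Snhg20 and Mir17hg. Their median log2 fold changes were 0.54, -0.17 and 0.46 in the 3 comparisons, and edgeR's quasi-likelihood test called 0 of 5 in each. At an unadjusted p under 0.05 they numbered 5, 1 and 3 of 5 (all genes tested: 32.6%, 23.5% and 26.0%), and DESeq2 called 2 (Snhg18 and Snhg20), 0 and 1 (Snhg20). Mir17hg was at 3.98, 3.36 and 3.87 CPM in naive WT, 9.55, 4.33 and 6.03 CPM in WT CAC and 4.27, 7.04 and 6.65 CPM in Cldn2TG CAC mice. Every CAC mouse lay above every naive mouse, with log2 fold changes of 0.85 (SE 0.31, adjusted p = 0.101) and 0.69 (SE 0.23, adjusted p = 0.0879), and WT CAC mouse 4 was the highest. Snhg12, a host of small nucleolar RNAs, had log2 fold changes to naive WT of 0.54 (SE 0.19, adjusted p = 0.0868) and 0.46 (SE 0.14, adjusted p = 0.0624), with all CAC mice above all naive mice. Snhg20 was at 6.02 to 7.30 CPM in naive WT, at 17.9, 6.37 and 16.3 CPM in WT CAC and at 7.78, 14.7 and 11.1 CPM in Cldn2TG CAC mice (adjusted p = 0.10 and 0.0659 against naive WT), and Snhg6 had log2 fold changes of 0.49 and 0.26 (adjusted p = 0.127 and 0.30). Snhg18 went the other way in WT CAC: it was at 47.0, 51.1 and 57.4 CPM in naive WT, 44.7, 27.0 and 30.5 CPM in WT CAC and 50.3, 57.8 and 46.5 CPM in Cldn2TG CAC mice (log2 fold change -0.58, SE 0.19, adjusted p = 0.0818 in WT CAC, and 0.57, SE 0.20, adjusted p = 0.114 between the CAC groups). 6720427I07Rik, which holds the let-7 hairpins and was named after its values were seen, had overlapping groups. It was at 2.14 to 2.52 CPM in naive WT, 1.86 to 4.98 CPM in WT CAC and 2.07 to 4.26 CPM in Cldn2TG CAC mice. 4833445I07Rik, also named after its values were seen, likewise overlapped, at 1.74 to 2.16, 1.72 to 3.61 and 1.63 to 2.89 CPM. The counts are of the rows themselves, and the mature microRNAs printed above were not measured.

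Of the nuclear and widely conserved lincRNAs, 7 were members. In edgeR's quasi-likelihood test Epb41l4aos alone was called, in both comparisons with naive WT, and DESeq2 called Meg3 as well in WT CAC. Neat1, the scaffold of paraspeckles, was at 338, 623 and 447 CPM in naive WT, 484, 241 and 324 CPM in WT CAC and 401, 552 and 456 CPM in Cldn2TG CAC mice, and all 3 groups overlapped. Malat1, a nuclear speckle RNA, was at 43.6 to 65.6, 35.9 to 74.4 and 56.6 to 87.7 CPM, also overlapping. 1700020I14Rik, the mouse form of Cyrano that binds miR-7, lay between 117 and 156 CPM in all 9 mice, with log2 fold changes of -0.05, 0.16 and 0.11 (SE 0.12 each). 2900097C17Rik (Norad, which binds Pumilio proteins) had log2 fold changes of -0.95 (SE 0.37, adjusted p = 0.118), 0.16 (SE 0.38) and -0.79 (SE 0.35, adjusted p = 0.186). Miat ranged from 0.758 to 4.06 CPM over the 9 mice with adjusted p of 0.373, 0.789 and 0.198.

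Meg3, the maternally expressed RNA of an imprinted locus on chromosome 12 that mesenchymal cells express, was not called by edgeR. It was at 4.28, 5.87 and 25.6 CPM in naive WT, 3.81, 1.59 and 1.87 CPM in WT CAC and 1.52, 2.84 and 3.25 CPM in Cldn2TG CAC mice. Every CAC mouse lay under every naive mouse, and naive WT mouse 3 stood far above all others. The log2 fold changes were -2.26 (SE 0.74, adjusted p = 0.0842) and -2.22 (SE 0.85, adjusted p = 0.183), and without naive WT mouse 3 they were -1.05 and -0.996. In WT CAC, DESeq2 and the fit of all 9 libraries called it. Smooth muscle genes summed to 1954 to 3966 CPM in naive WT, 1036 to 2875 CPM in WT CAC and 939 to 1452 CPM in Cldn2TG CAC mice, and in naive WT mouse 3 to 2928 CPM, with 0 of 6 called in WT CAC and 2 of 6 lower in Cldn2TG CAC against naive WT. The 6 fibroblast genes went the other way in WT CAC, with sums of 292 to 422 CPM in naive WT and 446 to 1119 CPM in WT CAC (0 of 6 called, median log2 fold change 0.94). In Cldn2TG CAC mice they summed to 181 to 260 CPM. There 1 of 6 was lower against naive WT (median -0.87) and 2 of 6 against WT CAC (median -1.76). The part of either list was not tested. Of the other mesenchymal and Hox lincRNAs, Bvht had log2 fold changes of 0.69 (SE 0.20, adjusted p = 0.0530, and 0.0230 in DESeq2, which called it), -0.33 and 0.36, and Lockd, downstream of the cell cycle inhibitor gene Cdkn1b, of -0.49, 0.90 (SE 0.34, adjusted p = 0.14) and 0.42. Mirt1, the remaining member of the immune list, had log2 fold changes of -0.40, 0.52 and 0.12, none called (adjusted p = 0.412, 0.367 and 0.842).

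To see whether members moved with the genes beside them, each was paired with the coding gene whose start lies nearest. The median distance was 20.4 kb. The start lay within 1000 bases on the opposite strand, facing away, for 25 members (divergent pairs), within 50 kb for another 84 and farther for 42. In WT CAC against naive WT, 9 of the 14 called members had a neighbour that could be tested, and 2 of these neighbours were called, in the same direction. Over all 123 pairs tested the neighbour was called in 22 (17.9%). Genes nearest to 2 members, such as Klf3 and Irs2, count in both pairs. C030037D09Rik fell with Msi2, which was at 83.6, 77.6 and 82.9 CPM in naive WT and 56.9, 64.2 and 60.7 CPM in WT CAC (log2 fold change -0.40, SE 0.10, adjusted p = 0.0356). Gm38910 fell with Mansc1, 24.8 kb away, at 100.7, 125 and 119 CPM and 64.9, 65.5 and 62.5 CPM (log2 fold change -0.81, SE 0.11, adjusted p = 0.00821), and both were lower in Cldn2TG CAC too (Mansc1 log2 fold change -0.48, SE 0.11, adjusted p = 0.0201). In Cldn2TG CAC against WT CAC the only pair with both called went in opposite directions: A930003A15Rik was higher and Klhl6, a lymphocyte gene 98.8 kb away, lower (log2 fold change -2.34, SE 0.39, adjusted p = 0.0114).

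Most pairs held a member that was not called. Such a member lay beside a called neighbour in 20, 16 and 6 pairs of the 3 comparisons. Klf3 and Irs2 each count in 2 of these pairs in the first comparison, and Irs2 does in the second. Of the 20, 16 and 6 pairs 14, 11 and 4 had the same sign in both genes, and of all pairs tested 76 of 123, 75 of 122 and 72 of 121 had. C430042M11Rik, named after its values were seen, has Haao as its neighbour at 6.46 kb. Haao had log2 fold changes of 2.38 (SE 0.51) and -2.13 (SE 0.46) in the first 2 comparisons and the member -0.07 and 0.41. Haao had few counts, with means of 0.245 CPM in naive WT, 1.26 CPM in WT CAC and 0.278 CPM in Cldn2TG CAC mice. Snhg18 starts 148 bases from the axon guidance gene Sema5a, which was at 84.4, 109 and 117 CPM in naive WT, 37.6, 42.8 and 31.8 CPM in WT CAC and 86.2, 74.5 and 65.3 CPM in Cldn2TG CAC mice (log2 fold changes -1.44, SE 0.16, adjusted p = 0.00492 and 0.99, SE 0.16, adjusted p = 0.0103). Gm2061, named after its values were seen, lies across the start of the manganese exporter gene Slc30a10 on the opposite strand and shares 19.3% of its exon bases with it, so without a known strand setting reads in those bases cannot be told apart. It was at 4.03, 3.57 and 2.43 CPM in naive WT, 1.47, 0.221 and 0.134 CPM in WT CAC and 6.13, 2.43 and 5.69 CPM in Cldn2TG CAC mice, and Slc30a10 at 18.02, 24.4 and 12.9 CPM, 3.45, 0.973 and 0.201 CPM, and 39.9, 15.5 and 40.2 CPM. Both were lowest in the WT CAC mice, with log2 fold changes of Gm2061 of -2.39 (SE 0.72, adjusted p = 0.0635) and 2.89 (SE 0.78, adjusted p = 0.0592) and of Slc30a10 of -3.52 (adjusted p = 0.0265) and 4.30 (adjusted p = 0.0255). Across pairs that could be tested, Pearson's r between the log2 fold changes was 0.33 over 123 pairs, 0.31 over 122 and 0.04 over 121 in the 3 comparisons, and 0.23, 0.14 and 0.04 without the pair whose coding gene changed most (Gm2061 with Slc30a10 in the first 2). These are correlations across genes, which share libraries and are not independent replicates. For the 25 divergent pairs r was 0.47, 0.42 and 0.10 (Spearman's rho 0.46, 0.15 and 0.16), for the others within 50 kb 0.47, 0.50 and 0.03 (64, 64 and 62 pairs; rho 0.34, 0.30 and 0.15) and for pairs farther apart 0.06, 0.04 and 0.17 (34, 33 and 34 pairs). Gm2061 with Slc30a10 is one of the pairs within 50 kb, and without it r in that class was 0.32 and 0.21 in the first 2 comparisons (63 pairs each).

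**Figure D5:**
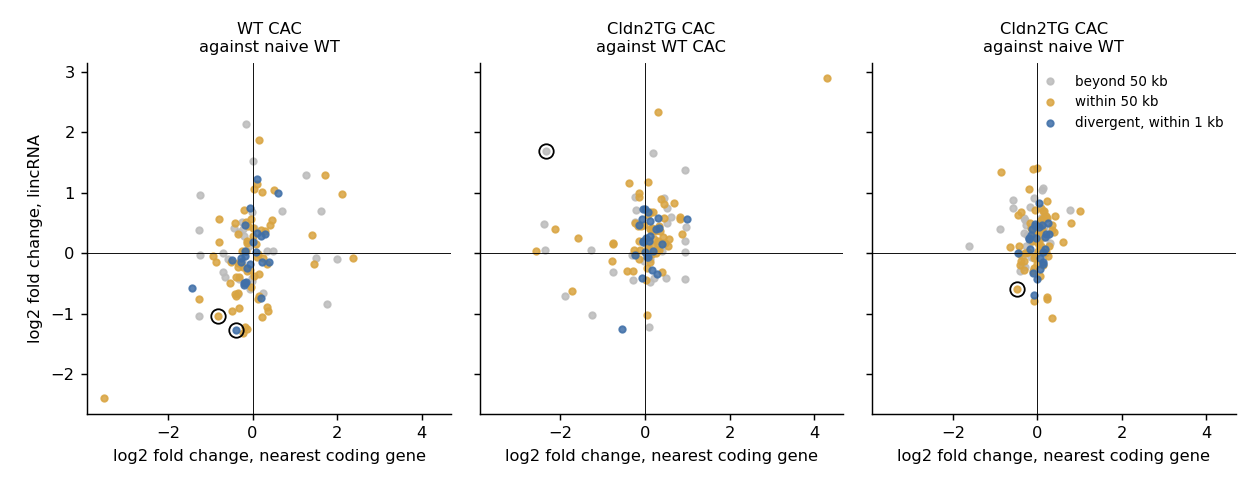
Log2 fold change of each member (vertical axis) against that of the coding gene with the nearest start (horizontal axis) in the 3 comparisons, coloured by position; rings mark pairs with both genes called. The outlying pair at the lower left and upper right of the first 2 panels is Gm2061 with Slc30a10, and the rings of the first panel are C030037D09Rik with Msi2 and Gm38910 with Mansc1.

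Members varied more between mice than coding genes did, and about as much as coding genes of like counts. The median coefficient of variation over the 151 members was 16.3% in naive WT, 27.5% in WT CAC and 18.1% in Cldn2TG CAC mice, against 9.80%, 15.9% and 12.0% for 12471 expressed coding genes. Within 1 to 10 CPM it was 18.2%, 30.9% and 19.7% for members and 18.8%, 27.4% and 21.6% for coding genes. The median SE of a member's log2 fold change was 0.32, 0.33 and 0.28. The smallest changes called were 0.67, 0.94 and 0.44 on the log2 scale. Among the 26 members of at least 10 CPM, 7 were called in WT CAC against naive WT (26.9%, against 13.9% of coding genes of that level), 2 in Cldn2TG CAC against WT CAC (7.69% against 5.95%) and 4 in Cldn2TG CAC against naive WT (15.4% against 8.39%). The 7 include Gm26917, from the list of ribosomal RNA or repeat rows. The 4 include Gm10076, whose reads may stem from Rpl41-like sequence.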

How the data were processed

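The deposited table holds whole-number read counts per gene, without normalization, in 18 columns (2 lanes of 9 libraries). The authors mapped reads with TopHat2 per the study's methods (the submitters' processing notes name HISAT2) and counted them with featureCounts of Subread, and the notes name GRCm38. The annotation release and strand setting were not given in the sources used here. The 2 lanes of each library were summed, since their counts agreed within sampling noise (chi-square per degree of freedom at most 1.06, and at least 16.8 for 2 mice of the same group). Gene types, symbols and positions came from GENCODE M21, which holds 47310 of the 47729 identifiers (the other 419 could not be typed). 40859 rows and 133 of the 151 members have the same start and end there.

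Each comparison was fitted on its 6 libraries with edgeR 4.0.16 in R 4.3.3 (TMM, filterByExpr with a minimum count of 10 and total of 15, robust quasi-likelihood test, two-sided, Benjamini-Hochberg over all genes tested, called under 0.05). All members passed the filter. CPM per mouse use TMM factors over all 9 libraries, and TPM were computed from the counts and exon lengths. The script was tested on simulated data. For single members an exact permutation test on log2 CPM (two-sided) was run, whose smallest p for 3 mice against 3 is 0.1. Nothing says that the mice of a group were housed or treated separately, so p-values measure the spread between these libraries. Alternatives were DESeq2 1.42.0, other scaling and filters, all 9 libraries in 1 fit, single lanes and leaving out each mouse. The members and lists were chosen with earlier results of these data known. Named members are those on a list, the 6 largest called without overlap in each direction and comparison, the 10 highest by TPM, those called in both comparisons of WT CAC or beside a called neighbour within 50 kb, and the 3 at the threshold. Lists and motifs were taken from general knowledge. Sequences came from RefSeq (GRCm38.p6).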

Additional observations from a re-analysis of the deposited data

How the results depend on the processing

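Over all named members and comparisons, 1906 values under alternatives gave 1731 on the same side of the threshold, 124 that lost and 51 that gained a call, and none that changed sign across a call. Of the 30 calls, alternatives with all mice kept 235 of 265 and fits without 1 mouse 86 of 180. A fit without 1 mouse rests on fewer mice, so a lost call need not mean a smaller change.

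The counts of called members depended on the tool and the mice. For WT CAC against naive WT (14) DESeq2 called 22 (20.9% of all genes tested), all 9 libraries in 1 fit 25 (20.2%) and an unadjusted p under 0.05 gave 45. For Cldn2TG CAC against WT CAC (6) these were 10 (13.9%), 11 (13.6%) and 23, and lane 2 alone gave 3 (7.48%). For Cldn2TG CAC against naive WT (10) no filter on low counts gave 16 (9.91%), all 9 libraries in 1 fit 4 (2.83%), an unadjusted p 35 and asking also for a change of 1 or more on the log2 scale 5. With all mice and edgeR these shares were 15.0%, 9.54% and 10.0%. Leaving out each mouse gave 3 to 30, 0 to 22 and 4 to 13. The cause was not tested, apart from the added or removed samples and thresholds themselves. With a threshold of 0.5 CPM the number of members would be 232. Without ribosomal RNA or repeat rows the share of counts on members was 0.177% in WT CAC and 0.173% in Cldn2TG CAC mice. No paired analysis was possible because the groups compared share no replicate numbers. At 3 counts, the limit that a count of 0 allows, a member is at 0.135 to 0.212 CPM.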

Other observations

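Of the 2747 autosomal lincRNAs under 1 CPM, 73, 59 and 77 passed the filter on low counts in the 3 comparisons, and edgeR called 7 (6 higher, 1 lower), 3 (all lower) and 1 (higher) of them, where it called 15.0%, 9.54% and 10.0% of all genes tested.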
